A study of Pyrus pyrifolia with 6 samples.

Results

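Lignin and phenylpropanoid synthesis was followed in pear pulp with watercore, a disorder in which the flesh becomes water-soaked, and in healthy pulp. The pathway was taken as the 209 protein-coding genes whose product name holds one of 10 kinds of enzyme or protein name, from phenylalanine ammonia-lyase at its entry to laccases and dirigent proteins at its end. These were 209 of the 38969 genes in the table, of which 34996 are protein coding. The classes described are 3 genes of phenylalanine ammonia-lyase (PAL), 3 of cinnamate 4-hydroxylase (C4H), 22 of 4-coumarate--CoA ligase (4CL), 10 of hydroxycinnamoyltransferase (HCT), 16 of caffeoylshikimate esterase (CSE), 3 of caffeoyl-CoA O-methyltransferase (CCoAOMT), 29 of cinnamoyl-CoA reductase (CCR), 13 of cinnamyl alcohol dehydrogenase (CAD), 50 laccases and 46 dirigent proteins. A product name is an assignment by similarity, and a gene so named need not have that activity in pear.

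RNA was sequenced from watercore pulp and from healthy pulp of Pyrus pyrifolia, with 3 libraries per group. Both groups came from the cultivar that the labels call Qiurong, on trees of 5 years, and both carry a harvest time of 120 days. No other treatment separates the groups, so the comparison is between tissue that showed the disorder and tissue that did not, at one time. The labels give pulp as the tissue picked but skin as the organ. The methods of the study name another cultivar, tree age and day after flowering than these labels, and pulp as the tissue, and the conflict was not settled. They call the libraries of a group biological replicates, while the labels do not tell separate fruit apart, so p-values measure the spread between these libraries. In bulk tissue, fewer cells of a type and less RNA per cell cannot be told apart.

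The pathway begins with PAL, which removes the amino group of phenylalanine and gives cinnamic acid. C4H and 4CL turn this into 4-coumaroyl-CoA, the branch point between lignin and flavonoids. HCT, a 3′-hydroxylase, CSE and CCoAOMT then build the caffeoyl and feruloyl forms, and CCR and CAD reduce them to alcohols. These alcohols, the monolignols, are coupled in the cell wall by laccases and peroxidases, and dirigent proteins steer some couplings towards lignans or ordered lignin. In pear flesh, lignin is best known from stone cells, the gritty sclereids with thick lignified walls, and the same enzymes also supply chlorogenic acid and other phenols.

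The libraries held 14431337 to 15290688 counts in watercore pulp and 14382020 to 14871188 counts in healthy pulp. Genes with at least 1 count numbered 27133 to 27293 in a watercore library and 24757 to 25105 in a healthy one. Levels are given as CPM, counts scaled to library size with edgeR's TMM factors, and log2 CPM correlated across genes at a Pearson's r of 0.981 to 0.982 between watercore libraries, 0.978 to 0.982 between healthy libraries and 0.849 to 0.870 between the groups. The 26 genes of the cuticle and epidermis list summed to 5.60 to 5.91 CPM in watercore libraries and 4.42 to 6.90 CPM in healthy libraries. Of these, 11 genes were at 0 throughout, so transcripts of this list were scarce in both groups. Whether skin was included in the tissue was not tested. The 145 genes of the ripening flesh list (expansins, polygalacturonases with 2 of their inhibitors, and ACC oxidases) summed to 17390 to 18450 CPM in watercore and 9632 to 11630 CPM in healthy libraries, of which the ACC oxidase gene LOC103948231 alone gave 12700 to 13570 CPM and 6803 to 8644 CPM. The 24 seed genes summed to 1232 to 1383 CPM in watercore and 86.4 to 98.6 CPM in healthy libraries, and in watercore pulp most of this came from a pair of 11S globulin genes, LOC103946294 (682.2 ± 59.9 CPM, against 5.10 ± 2.21 in healthy pulp) and LOC103946298 (536.5 ± 18.6 CPM, against 7.06 ± 3.12; SD, n = 3 each). The part of the ripening and seed lists in the results was not tested. The 12 phloem genes summed to 165.1 to 178.4 CPM in watercore and 136.2 to 155.8 CPM in healthy libraries, and the 32 genes of photosynthetic cells to 1001 to 1108 CPM and 965.5 to 997.1 CPM.

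The summed transcripts of the pathway were higher in watercore pulp, and 1 gene set that direction. The 209 genes summed to 5326, 5258 and 5070 CPM in watercore libraries and to 4073, 4147 and 3946 CPM in healthy libraries. Each library therefore gave the pathway between 0.511% and 0.529% of its counts in watercore pulp and between 0.389% and 0.416% in healthy pulp. The ratio of the mean sums was 1.29, and the groups did not overlap. Without LOC103963306, a cinnamate 4-hydroxylase gene, the other 208 genes summed to 3561 ± 78.2 CPM in watercore and 3756 ± 89.5 CPM in healthy pulp (SD, n = 3 each), which is lower in watercore. More of the genes were seen at all in watercore pulp, with at least 1 count for 109, 112 and 112 genes in its libraries against 80, 71 and 76 genes in healthy libraries. Over the whole table, 27133 to 27293 genes had a count in a watercore library and 24757 to 25105 in a healthy one.

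A gene was tested where it passed a filter near 10 counts (0.687 CPM) in at least 3 libraries, and it was called at a log2 fold change of at least 1 in size and an adjusted p under 0.05. The test was edgeR's quasi-likelihood test with Benjamini-Hochberg adjustment over all 21200 genes that passed. Of the 209 genes, 64 passed and 145 did not. Among the 64, 38 were called higher and 3 lower in watercore pulp, against a background of 17.6% higher and 7.54% lower among all tested genes, and 23 were not called. The watercore libraries all lay above the healthy ones for 44 genes and all below them for 7, where 35.5% and 33.8% of all tested genes did so. Without the fold minimum, 44 genes passed upward and 6 downward, against 32.3% and 30.4% of all tested genes.

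The filter bears on these counts, because a gene that passed only through watercore libraries had to differ. Past the filter level in all watercore libraries and in no healthy library were 18 of the 64, and all 18 were called higher, as were 97.3% of all genes of that kind. Another 10 were past it in all watercore and some healthy libraries, all 10 called higher, where 58.1% of such genes were. The 33 that were past it in every library give the reading least touched by the filter. Of these 33, 10 were called higher and 2 lower, beside 11% and 6.83% of all genes past it in every library. Without the fold minimum 16 passed upward and 5 downward, beside 28.3% and 33.7%, and the watercore libraries all lay above the healthy ones for 17 and below them for 6, beside 31.6% and 37.5%. Their median log2 fold change was 0.30, and that of all such genes was −0.07.

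**Figure D1:**
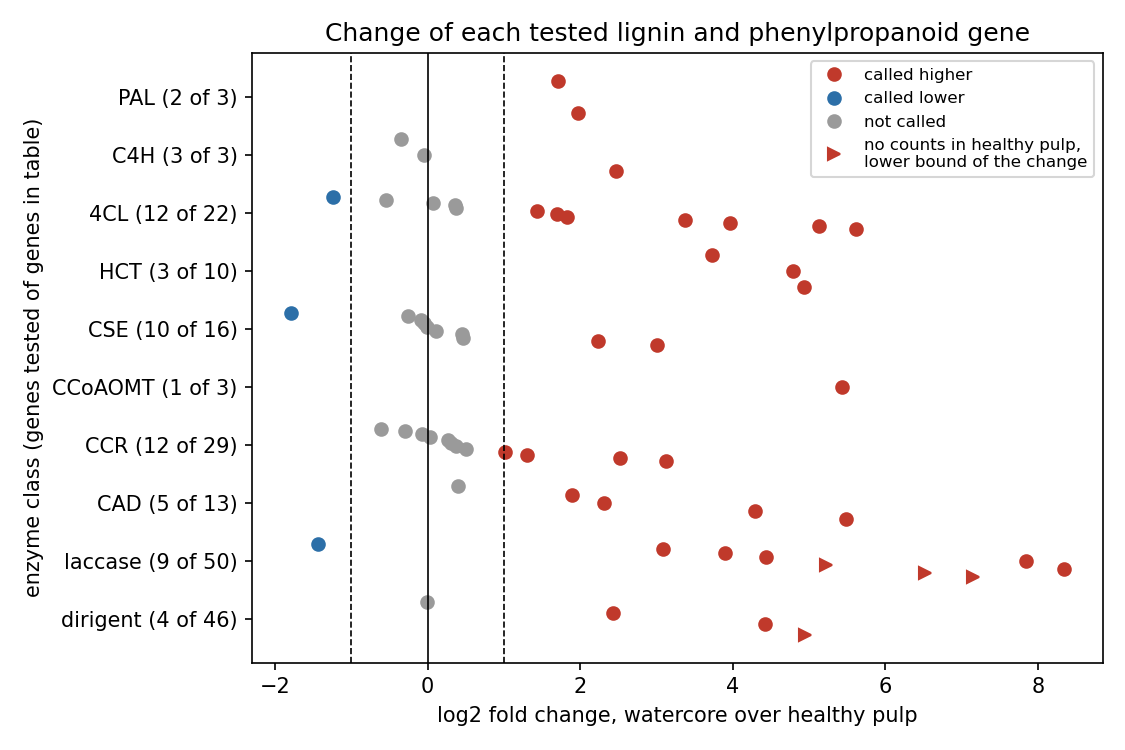
Log2 fold change (watercore over healthy pulp, horizontal axis) of 61 tested genes by enzyme class in pathway order, with the number tested of the number in the table, dashed lines at the fold threshold, and triangles for genes without healthy counts, placed at a lower bound. The 35 genes called higher (red) occur in all 10 classes shown, the 3 called lower (blue) are 1 ligase, 1 esterase and 1 laccase, and the genes not called (grey) are mostly esterases and reductases.

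The entry enzyme rose in watercore pulp through both of its tested genes. PAL is the committed step from primary metabolism. LOC103934948 (phenylalanine ammonia-lyase 1, scaffold NW_008988053.1 from 1586119 to 1588837) had 161.8, 159.7 and 168.8 CPM in watercore libraries and 56.3, 49.8 and 43.6 CPM in healthy libraries. All watercore libraries were about equally high and the groups stood far apart (log2 fold change 1.71 with a standard error (SE) of 0.09, adjusted p = 1.02e-06). This gene held 97.5% to 98.7% of the summed PAL CPM of a library. The minor gene LOC103962533 had 3.95, 3.48 and 2.89 CPM in watercore libraries and 0.884, 0.670 and 1.06 CPM in healthy libraries (log2 fold change 1.98, SE 0.29, adjusted p = 3.58e-04). Per length, LOC103934948 stood at a mean of 70.7 FPKM in watercore and 21.4 FPKM in healthy pulp, and LOC103962533 at 1.41 and 0.353 FPKM. The PAL gene left untested had at most 4 counts in any library.

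C4H, the cytochrome P450 that hydroxylates cinnamic acid, was the most abundant class of the pathway, and its 2 abundant genes did not move together. LOC103963306 (NW_008988285.1 from 183080 to 187612) had 1685, 1700 and 1585 CPM in watercore libraries and 307.1, 306.3 and 283.2 CPM in healthy libraries. Its groups were tight and far apart (log2 fold change 2.47, SE 0.06, adjusted p = 5.90e-08). LOC103945990 (NW_008988040.1 from 2024733 to 2029163) had 1308, 1183 and 1137 CPM in watercore libraries and 1570, 1548 and 1501 CPM in healthy libraries. Its watercore libraries all lay below the healthy ones, by less than the fold threshold (log2 fold change −0.35, SE 0.06, adjusted p = 0.00124).

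The balance between these C4H genes therefore differed between the groups. On the FPKM scale, the ratio of LOC103963306 to LOC103945990 was 0.992, 1.11 and 1.08 in watercore libraries and 0.151, 0.153 and 0.145 in healthy libraries. LOC103963306 gave 56.0% to 58.7% of the summed C4H CPM of a watercore library and 15.8% to 16.4% of that of a healthy library. The 2 genes lie on different scaffolds. The third gene, LOC103945999, sits beside LOC103945990 on the same strand and was weakly expressed at 14.4, 14.3 and 11.5 CPM in watercore libraries and 16.4, 14.2 and 11.2 CPM in healthy libraries (log2 fold change −0.05, adjusted p = 0.784). Summed C4H reached 2879 ± 138 CPM in watercore pulp and 1852 ± 50.6 CPM in healthy pulp (SD, n = 3 each).

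**Figure D2:**
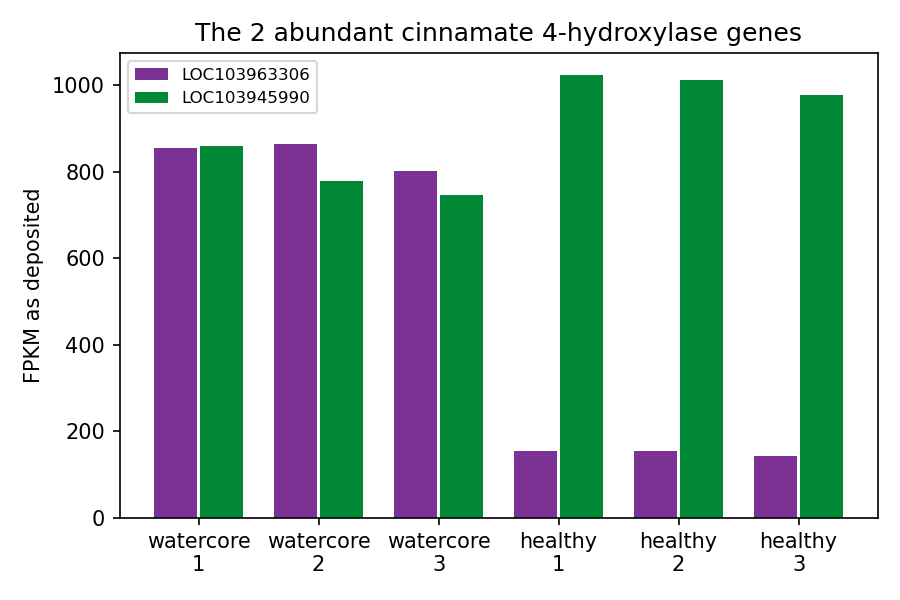
Deposited FPKM (vertical axis, from 0) of the 2 abundant cinnamate 4-hydroxylase genes in each of the 6 libraries, 1 bar per gene and library. LOC103963306 (purple) averaged 839.6 FPKM in watercore and 150.2 FPKM in healthy pulp, while LOC103945990 (green) averaged 795.3 FPKM in watercore and 1004 FPKM in healthy pulp.

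4CL joins hydroxycinnamic acids to coenzyme A. The 22 genes fall by name into 6 ligases called 1 or 2, the names of true 4-coumarate ligases in other plants, and 16 ligase-like genes, some of which act in Arabidopsis on fatty acids and jasmonate precursors instead. Of the 6 named 1 or 2, 4 were tested and all 4 were called higher, but none of these passed the filter level in a healthy library, so the calls follow in part from the filter. Their sum was 23.3, 41.8 and 22.6 CPM in watercore libraries and 0.816, 0.402 and 1.34 CPM in healthy libraries. Of the 16 ligase-like genes, 8 were tested, 3 called higher and 1 lower.

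Among the ligases named 1 or 2, LOC103951504 (4-coumarate--CoA ligase 2-like, NW_008988121.1 from 168394 to 173572) carried most of the signal. It had 19.1, 35.9 and 17.0 CPM in watercore libraries and 0.612, 0.268 and 0.564 CPM in healthy libraries, with watercore replicate 2 the highest and no overlap (log2 fold change 5.62, SE 0.41, adjusted p = 5.93e-06). LOC103939486 had 15, 15 and 18 counts in watercore libraries and 1 count in all healthy libraries, a scaled ratio of 47.7 with an exact 95% interval of 8.16 to 1923 (adjusted p = 2.72e-04). LOC103945464 had 17, 10 and 10 counts in watercore libraries against 2 counts in healthy replicate 1 alone, a ratio of 18.4 (4.74 to 157.4, adjusted p = 0.00244). The healthy counts of both genes came from healthy replicate 1, without which they had none in healthy pulp. Such intervals, and the lower bounds given further on, cover counting error only.

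The most abundant ligase-like gene went the other way without reaching the fold threshold. LOC103947702 (4-coumarate--CoA ligase-like 7) had 727.3, 670.1 and 717.0 CPM in watercore libraries and 983.8, 1134 and 969.5 CPM in healthy libraries, all watercore libraries being lower (log2 fold change −0.55, SE 0.07, adjusted p = 1.88e-04). It held 86.9% to 89.6% of the summed 4CL CPM in watercore and 95.6% to 96.3% in healthy libraries, and through it the summed 4CL level was 795.0 ± 21.3 CPM in watercore and 1073 ± 90.7 CPM in healthy pulp (SD, n = 3 each). LOC103950104 (ligase-like 9) fell, with 3.56, 3.41 and 2.82 CPM in watercore libraries against 7.75, 7.30 and 8.04 CPM in healthy libraries (log2 fold change −1.24, SE 0.18, adjusted p = 3.22e-04). It lies within the span of LOC103950040, another ligase-like 9 gene on the same strand, so reads may have been split between them, and LOC103950040 itself was at a log2 fold change of 0.07 (adjusted p = 0.542).

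LOC103929133 and LOC103937856 rose modestly. LOC103929133 had 5.14, 3.97 and 4.67 CPM in watercore libraries against 1.63, 1.27 and 1.34 CPM in healthy libraries (log2 fold change 1.69, SE 0.24, adjusted p = 2.97e-04). LOC103937856 had 1.65, 1.88 and 2.27 CPM in watercore libraries against 0.952, 0.268 and 0.917 CPM in healthy libraries (log2 fold change 1.43, SE 0.43, adjusted p = 0.0175). Its call was lost without watercore replicate 3 (adjusted p = 0.0640). Chosen after its values were seen, LOC103927137 (ligase-like 5, the name of an Arabidopsis enzyme of jasmonate synthesis) had 20.8, 17.0 and 21.6 CPM in watercore libraries and 6.32, 5.09 and 5.36 CPM in healthy libraries (log2 fold change 1.82, SE 0.14, adjusted p = 9.96e-06).

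HCT moves the coumaroyl group to shikimate or quinate and so opens the route to caffeoyl units and chlorogenic acid. All 3 tested genes of 10 were called higher, beside 17.6% of all tested genes, and 1 of them was past the filter level in every library. LOC103955862 was past it in no healthy library, where 97.3% of all such genes were called higher. LOC103945376 (NW_008988071.1 from 292741 to 296373) had 26.1, 36.2 and 24.6 CPM in watercore libraries and 2.92, 2.61 and 0.987 CPM in healthy libraries (log2 fold change 3.72, SE 0.31, adjusted p = 1.19e-05). HCT3, its neighbour on the same scaffold and strand from 321664 to 328527, had 6.85, 12.5 and 6.46 CPM in watercore libraries and 0.748, 0 and 0.0705 CPM in healthy libraries (log2 fold change 4.93, SE 0.71, adjusted p = 3.22e-04). Both were highest in watercore replicate 2. Most healthy counts of HCT3 came from healthy replicate 1, and without it the log2 fold change was 7.65. LOC103955862 had 11, 12 and 15 counts in watercore libraries and 1 in all healthy libraries, a ratio of 37.8 (6.38 to 1530, adjusted p = 6.16e-04), and none was left without healthy replicate 3.

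CSE cleaves caffeoylshikimate to caffeic acid. Its 10 tested genes of 16 showed no common direction, with 2 called higher, 1 lower and 7 not called. LOC103936760 (NW_008988838.1 from 161717 to 165474) was the most abundant in healthy pulp and fell, with 68.2, 70.1 and 80.8 CPM in watercore libraries and 230.8, 197.2 and 331.0 CPM in healthy libraries (log2 fold change −1.79, SE 0.17, adjusted p = 3.11e-05). The table's protein match for this gene names a monoglyceride lipase, a lipid-cleaving enzyme. LOC103967993 has the same protein match and rose, with 3.36, 4.03 and 3.30 CPM in watercore libraries and 0.952, 0.804 and 0.493 CPM in healthy libraries (log2 fold change 2.23, SE 0.31, adjusted p = 2.42e-04). LOC103940081 also rose, with 5.67, 3.55 and 5.77 CPM in watercore libraries and 0.748, 0.737 and 0.352 CPM in healthy libraries (log2 fold change 3.01, SE 0.36, adjusted p = 9.79e-05). Through LOC103936760, summed CSE was 241.1 ± 9.78 CPM in watercore and 381.9 ± 61.6 CPM in healthy pulp (SD, n = 3 each).

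CCoAOMT transcripts were scarce in healthy pulp. The enzyme places the methoxyl group that distinguishes guaiacyl lignin, and its single tested gene of 3 was LOC103933993 (NW_008988666.1 from 46138 to 47769). It had 4.28, 8.14 and 3.51 CPM in watercore libraries and 0.136, 0.134 and 0.0705 CPM in healthy libraries (log2 fold change 5.44, SE 0.51, adjusted p = 2.61e-05). All watercore libraries were higher, replicate 2 the most. The gene was past the filter level in no healthy library, where 97.3% of all such genes were called higher.

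CCR reduces the CoA esters to aldehydes and is the first step given over to monolignols. Its 12 tested genes of 29 split by name. None of the 8 tested genes named CCR 1 was called at these thresholds. At an adjusted p under 0.05 without a fold minimum 4 of them passed, LOC103945355, LOC103945358 and LOC103963803 upward and LOC103958972 downward. All 8 were past the filter level in every library, where 28.3% of all genes passed upward and 33.7% downward in this way. The most abundant per length was LOC108867111, with 223.8, 216.8 and 261.8 CPM in watercore libraries and 225.9, 204.2 and 140.9 CPM in healthy libraries, which overlap (log2 fold change 0.30, SE 0.15, adjusted p = 0.122). It shares its span with LOC103945355 on the same strand, so that the counts of the pair are uncertain one by one.

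Both tested genes named CCR 2, the name of a pathogen-induced reductase in Arabidopsis, rose, and they lie side by side on NW_008988254.1. LOC103961764 (309144 to 312671) had 45.9, 49.1 and 39.2 CPM in watercore libraries and 6.46, 5.76 and 3.10 CPM in healthy libraries (log2 fold change 3.13, SE 0.22, adjusted p = 4.67e-06). LOC103961765 (298877 to 304348) had 5.01, 4.73 and 4.05 CPM in watercore libraries and 1.09, 0.804 and 0.493 CPM in healthy libraries (log2 fold change 2.52, SE 0.31, adjusted p = 1.30e-04). Their CPM summed to 49.3 ± 5.49 in watercore and 5.90 ± 2.06 in healthy pulp (SD, n = 3 each), and neither pair of groups overlapped.

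Of 9 genes named SNL6, after a rice reductase that takes part in defence, 2 were tested and both were called near the threshold. LOC103960452 had 15.4, 10.8 and 11.6 CPM in watercore libraries against 6.12, 7.17 and 5.36 CPM in healthy libraries (log2 fold change 1.02, SE 0.18, adjusted p = 0.00110), and its fold was under the threshold without watercore replicate 1 (0.85) and without healthy replicate 3 (0.92). LOC103951491 had 2.11, 1.74 and 2.27 CPM in watercore libraries against 0.272, 0.871 and 1.34 CPM in healthy libraries (log2 fold change 1.30, SE 0.47, adjusted p = 0.0360). That call was lost with any library but healthy replicate 3 left out, at log2 fold changes of 0.88 to 1.41.

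CAD reduces the aldehydes to monolignols. Of 13 genes 5 were tested, 2 of them past the filter level in no healthy library, where 97.3% of all such genes were called higher. Of the 5, 4 were called higher, all of low level. The abundant one was not: LOC103962668 (cinnamyl alcohol dehydrogenase 1) had 217.5, 204.6 and 211.8 CPM in watercore libraries and 150.4, 159.9 and 172.0 CPM in healthy libraries (log2 fold change 0.39, SE 0.06, adjusted p = 5.68e-04). Its watercore libraries were all above the healthy ones by less than the fold threshold, and it held at least 94.7% of the summed CAD CPM in every library. LOC103927518 had 34, 17 and 11 counts in watercore libraries and 1 count in all healthy libraries, a ratio of 61.6 (10.7 to 2472, adjusted p = 5.52e-04), and none was left without healthy replicate 2.

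The other 3 CAD genes called higher were all named dehydrogenase 1. LOC103928512 had 1.25, 5.57 and 1.72 CPM in watercore libraries against 0.0680, 0.335 and 0 CPM in healthy libraries (log2 fold change 4.29, SE 0.89, adjusted p = 0.00253), with 3.37 on the log2 scale without watercore replicate 2 and 6.05 without healthy replicate 2. LOC103951782 had 6.46, 0.904 and 4.54 CPM in watercore libraries against 0.544, 1.27 and 0.564 CPM in healthy libraries, which overlap (log2 fold change 2.31, SE 0.66, adjusted p = 0.0138, and 0.0612 without watercore replicate 1). LOC103951787 had 1.78, 1.74 and 2.41 CPM in watercore libraries against 0.340, 0.268 and 0.987 CPM in healthy libraries (log2 fold change 1.89, SE 0.47, adjusted p = 0.00692). Without healthy replicate 3 its log2 fold change was 2.67.

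**Figure D3:**
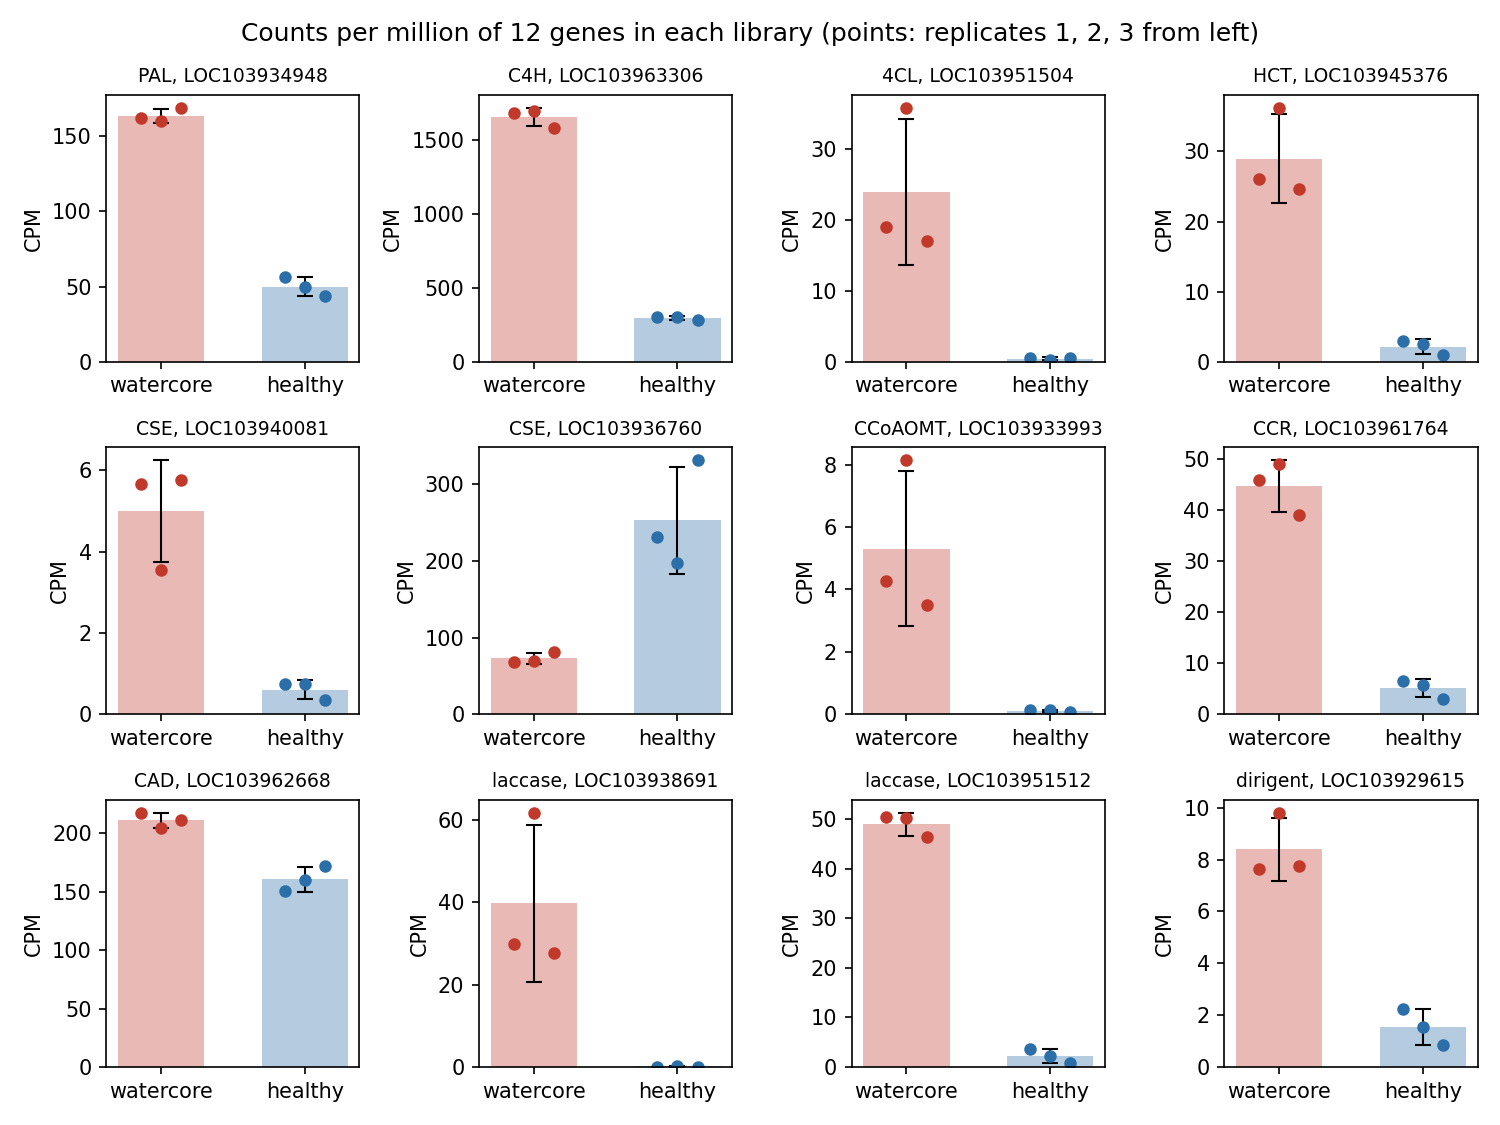
CPM (vertical axes, from 0) of 12 genes of the pathway in the 3 watercore (red) and 3 healthy (blue) libraries, with points for libraries, bars for means and error bars for 1 SD. The watercore libraries lie above the healthy ones for every gene shown except the esterase LOC103936760, which had 68.2 to 80.8 CPM in watercore and 197.2 to 331.0 CPM in healthy libraries. The 12 were picked for display and do not stand for the pathway, and 35.5% of all tested genes lay above in this way. Not shown are LOC103945990 and LOC103947702, lower in all watercore libraries, and LOC108867111 and LOC103955075, whose groups overlap.

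Laccases, the copper oxidases that couple monolignols in the wall, had the largest ratio of mean sums, 37.9, among the classes with more than 3 genes. The 50 genes summed to 135.9, 226.5 and 123.2 CPM in watercore libraries and 6.12, 3.82 and 2.89 CPM in healthy libraries, that is 7112 counts against 188. Only 9 of the 50 were tested, 8 called higher and 1 lower, and 6 of the 8 were past the filter level in no healthy library. Counts in watercore pulp alone were seen for 19 laccase genes and counts in healthy pulp alone for 0, while 21 had no count at all. Watercore libraries held more genes with a count over the whole table too, and the share of all genes seen in 1 group alone was not computed.

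By name, the laccase signal sat in a few kinds. The 8 laccase-7 genes held 2637 counts in watercore and 5 in healthy pulp, and all 4 that were tested were called higher. All 4 were past the filter level in no healthy library, where 97.3% of all such genes were called higher. LOC103938691 (NW_008988996.1 from 141887 to 144452) had 29.8, 61.8 and 27.8 CPM in watercore libraries and 0.0680, 0.201 and 0.0705 CPM in healthy libraries (log2 fold change 8.34, SE 0.55, adjusted p = 3.58e-06). Without healthy replicate 2 its log2 fold change was 9.0. The neighbours LOC103949423 and LOC103949426 on NW_008988103.1 had no healthy count. LOC103949423 had 10.5, 8.63 and 9.89 CPM in watercore libraries, at least 141.4-fold higher if the healthy group as a whole is given 3 counts (adjusted p = 4.02e-06). LOC103949426 had 7.64, 4.45 and 6.67 CPM in watercore libraries, at least 91.8-fold higher on the same footing (adjusted p = 2.34e-05).

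The 4 laccase-15 genes, named after an Arabidopsis oxidase of seed coat flavonoids, held 4084 counts in watercore and 107 in healthy pulp. LOC108865325 (NW_008988059.1 from 153195 to 156206) had 21.7, 89.5 and 20.3 CPM in watercore libraries and 0.340, 0 and 0.212 CPM in healthy libraries (log2 fold change 7.84, SE 0.97, adjusted p = 1.24e-04). Watercore replicate 2 was over 4 times the others, and without it the log2 fold change was 6.79, while without healthy replicate 1 it was 8.62. LOC103951512, chosen after its values were seen, was even across the watercore libraries with 50.4, 50.2 and 46.3 CPM, against 3.60, 2.28 and 0.846 CPM in healthy libraries (log2 fold change 4.44, SE 0.30, adjusted p = 3.96e-06). It was the single laccase past the filter level in every library.

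Of the remaining laccases, LOC103946137 (laccase-9) had 5.21, 3.83 and 3.57 CPM in watercore libraries and 0.748, 0.0670 and 0 CPM in healthy libraries (log2 fold change 3.90, SE 0.73, adjusted p = 0.00140), and 6.62 on the log2 scale without healthy replicate 1. LOC103960843 (laccase-11) had 3.36, 1.60 and 2.20 CPM in watercore libraries and 0.272, 0.134 and 0.423 CPM in healthy libraries (log2 fold change 3.08, SE 0.48, adjusted p = 4.70e-04). The kinds known in Arabidopsis stems as the main lignin laccases were scarce: the 6 laccase-4 genes had 4 counts in watercore and 0 in healthy pulp, the 10 laccase-17 genes 12 and 2, and the 4 laccase-11 genes 139 and 16. LOC103964684 (laccase-2) was the laccase called lower, with 0.593, 0.209 and 0.206 CPM in watercore libraries and 0.884, 0.938 and 0.987 CPM in healthy libraries (log2 fold change −1.44, SE 0.48, adjusted p = 0.0269). At these few counts the call was lost with any library but watercore replicate 1 left out, and with DESeq2 (adjusted p = 0.117). Without watercore replicate 1 the log2 fold change was −2.13.

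**Figure D4:**
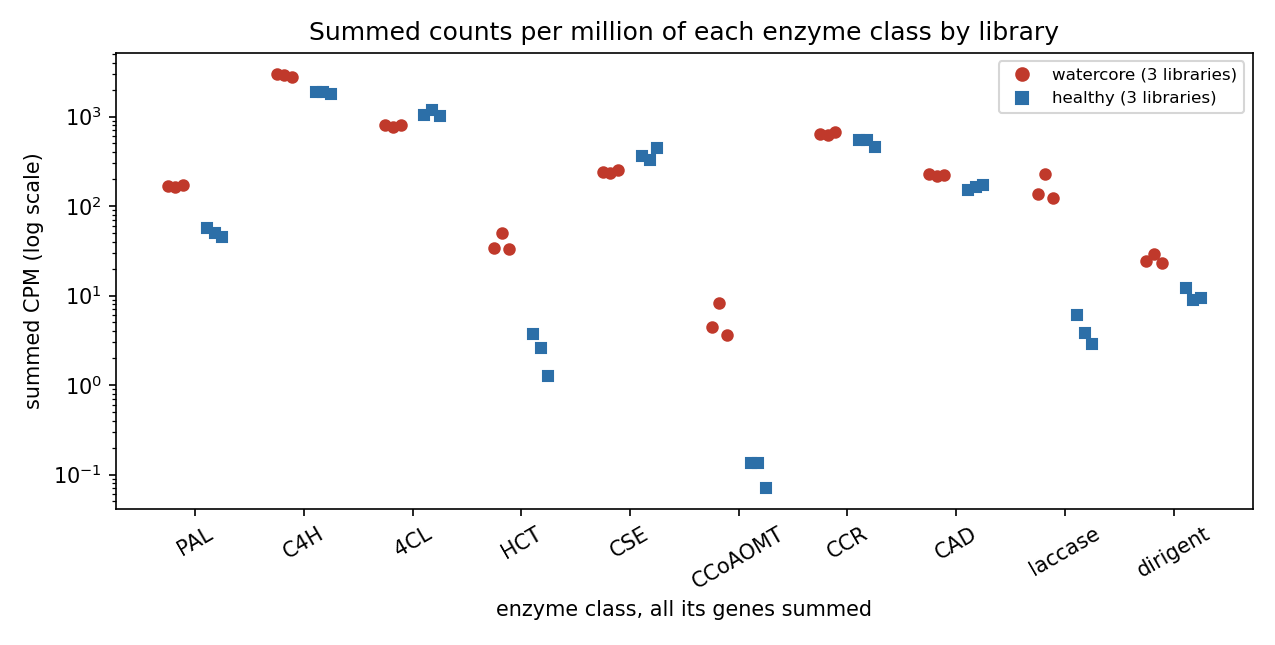
Summed CPM (vertical axis, log scale) of all genes of each of 10 enzyme classes in each watercore (red circles) and healthy (blue squares) library, replicates 1 to 3 from left to right in each group. The laccases summed to 123.2 to 226.5 CPM in watercore and 2.89 to 6.12 CPM in healthy libraries, while 4CL and CSE were lower in watercore.

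Dirigent proteins have no oxidase activity and guide the coupling of phenoxy radicals. They were largely unseen, with 30 of 46 genes at 0 in all libraries and 4 tested, 3 of them called higher. Of these 3, 2 were past the filter level in no healthy library, where 97.3% of all such genes were called higher. LOC103955075 (dirigent protein 1) was the most abundant per length and had 7.51, 8.35 and 8.25 CPM in watercore libraries and 8.97, 6.97 and 8.32 CPM in healthy libraries, which overlap (log2 fold change −0.01, SE 0.15, adjusted p = 0.963). LOC103929615 had 7.64, 9.81 and 7.77 CPM in watercore libraries and 2.24, 1.54 and 0.846 CPM in healthy libraries (log2 fold change 2.44, SE 0.31, adjusted p = 1.62e-04). Its product is called dirigent protein 19, yet its protein match names a dehydrodolichyl diphosphate synthase, so its class is doubtful.

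LOC103954023 (dirigent protein 22) had 4.87, 4.66 and 2.68 CPM in watercore libraries and 0.408, 0 and 0.141 CPM in healthy libraries (log2 fold change 4.42, SE 0.63, adjusted p = 2.95e-04). Without healthy replicate 1 its log2 fold change was 5.72. LOC103936546 (dirigent protein 19) had 1.51, 3.20 and 1.65 CPM in watercore libraries and no healthy count, at least 30.8-fold higher with 3 counts allowed to the healthy group (adjusted p = 2.84e-04).

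The 145 genes left untested were low throughout, with at most 39 counts in any library. No count in any library was seen for 75 of the 209 genes, counts in watercore pulp alone for 37 and counts in healthy pulp alone for 5. The share of all genes seen in 1 group alone was not computed, and watercore libraries held more genes with a count over the whole table. The highest single count among the untested was that of LOC103965844, an SNL6 reductase with 39, 9 and 23 counts in watercore libraries and 2, 3 and 1 counts in healthy libraries. LOC103959617, a laccase-7 gene, had 8, 5 and 31 counts in watercore libraries and none in healthy libraries. Both were chosen after their values were seen, and neither reached the filter in 3 libraries.

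Watercore libraries were not alike for the genes that rose. Watercore replicate 2 was highest by at least 1.5 times over the next library for 8 of the 38 genes (21.1%), against 5.09% of all 3730 genes called higher. Watercore replicate 1 stood out in this way for 4 (10.5%, against 2.17%) and replicate 3 for 0 (against 2.20% of all genes called higher). The 8 genes highest in replicate 2 include the ligase LOC103951504, HCT3, the CCoAOMT gene LOC103933993, the alcohol dehydrogenase LOC103928512, the laccases LOC103938691 and LOC108865325, and the dirigent protein LOC103936546. Without watercore replicate 2, 38 genes were again called higher, and 37 of these were among the 38 called with all libraries.

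**Figure D5:**
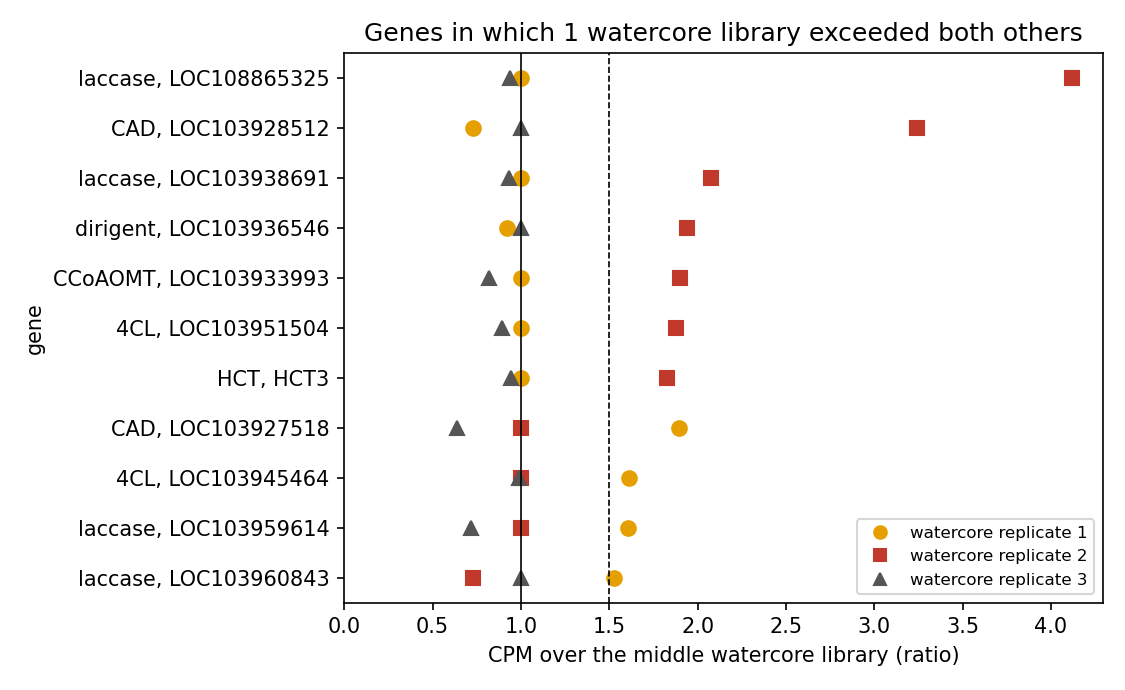
CPM of each watercore library divided by that of the middle watercore library (horizontal axis, ratio) for 11 genes called higher in which 1 library was at least 1.5 times the next, marked by the dashed line. Watercore replicate 2 (red squares) stands apart for 7 of these genes and replicate 1 (orange circles) for 4.

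Position was a property that the choice of genes did not use. The 209 genes lie on 109 of the 1672 scaffolds in the table, and 117 of them form 40 groups of neighbours with starts within 50 kb. In 10 of these groups at least 2 genes were tested. Neighbours of the same name were both called higher in the HCT pair, the CCR 2 pair and the laccase-7 pair described above, and the laccase-7 pair passed the filter through watercore libraries alone. No gene was called in 4 of the groups: the C4H pair on NW_008988040.1 (log2 fold changes −0.05 and −0.35), a CSE pair on the same scaffold (0.46 and −0.01) and the CCR 1 genes on NW_008988071.1 (0.26, 0.30 and 0.37) and on NW_008988208.1 (−0.07, −0.61 and −0.30). In the ligase-like 9 pair, which overlaps, 1 gene was called lower and the other was not called. In the largest group, 8 CAD genes on NW_008988123.1 between 756099 and 873140, the 2 that were tested rose and the other 6 had at most 5 counts in a group. The ligase LOC103951504 and the laccase LOC103951512 are neighbours of different classes on NW_008988121.1 that both rose. How reads were shared among near-identical neighbours is not stated in the sources.

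Steps around the pathway give its setting. Of 45 genes for the supply of phenylalanine through shikimate and chorismate, 35 were tested, 14 called higher and 0 lower, beside 17.6% and 7.54% of all tested genes. Of the 35, 27 were past the filter level in every library, with 6 called higher, beside 11% of all such genes. Another 5 were past it in no healthy library, all 5 called higher, beside 97.3% of all such genes. The 45 summed to 1501 to 1518 CPM in watercore and 1164 to 1200 CPM in healthy libraries. By its name rule this list also holds synthases that draw chorismate to folate or salicylate. Of those named aminodeoxychorismate synthase, LOC103941227 and LOC103966626 were called higher and LOC103937180 was not called. LOC103941227 and LOC103966626 are among the 6 called higher that were past the filter level in every library. LOC103962879, a bifunctional dehydroquinate dehydratase and shikimate dehydrogenase, had 166.5, 179.4 and 165.7 CPM in watercore libraries and 34.0, 41.6 and 32.6 CPM in healthy libraries (log2 fold change 2.24, adjusted p = 3.94e-07). LOC103938972, a chorismate mutase at the branch to phenylalanine, had 12.6, 11.5 and 11.1 CPM in watercore libraries and 0.340, 0.134 and 0 CPM in healthy libraries (log2 fold change 6.13, adjusted p = 6.24e-06). LOC103954756, an arogenate dehydratase, the enzyme that forms phenylalanine, had 5.40, 4.73 and 4.88 CPM in watercore libraries and 0.136, 0 and 0.212 CPM in healthy libraries (log2 fold change 5.35, adjusted p = 2.52e-05). LOC103938972 and LOC103954756 were past the filter level in no healthy library. These genes were chosen after their values were seen, and their watercore libraries all lay above the healthy ones. Among the other tested arogenate dehydratase genes, LOC103929870 and LOC103948185 were also called higher, at 1.85 and 1.64 on the log2 scale. The more abundant LOC103938299, LOC103948900, LOC103949981 and LOC103943777 were not called, at −0.15, −0.51, 0.17 and −0.38. Of the other tested chorismate mutase genes, the more abundant LOC103951019 was not called, at −0.20, and LOC103953601 was called higher, at 2.09. Of the other bifunctional dehydroquinate dehydratase and shikimate dehydrogenase genes, LOC103926675 and LOC103926672 were not called, at −0.22 and −0.24. The less abundant LOC103934019 and LOC103928352 were called higher.

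The ring hydroxylases that act between the classes above were 10 genes with their reductases. Of these, 6 were tested, 3 called higher and 0 lower, beside 17.6% and 7.54% of all tested genes. None of the 3 was past the filter level in every library. LOC103944999 was past it in no healthy library, where 97.3% of all such genes were called higher. The 3 were all P450 98A2 genes, the 3′-hydroxylase family that acts after HCT. LOC103944996 had 5.27, 9.74 and 5.84 CPM in watercore libraries and 0.816, 0.670 and 0.776 CPM in healthy libraries (log2 fold change 3.19, adjusted p = 3.79e-05). LOC103944999 and LOC103944997 were at log2 fold changes of 4.22 (adjusted p = 2.29e-05) and 2.52 (adjusted p = 0.00369), while the other two P450 98A2 genes, LOC103946366 and LOC103946365, were not called, at −0.50 (adjusted p = 0.220) and −0.40 (adjusted p = 0.321). The 4 genes of P450 84A1, the ferulate 5-hydroxylase name, went untested, with at most 12 counts in a library.

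The lists of branches away from lignin held few tested genes. Of all tested genes, 17.6% were called higher and 7.54% lower. Of 10 genes at the entry to flavonoids (chalcone synthase and isomerase) 3 were tested and 1, LOC103965055, was called higher. LOC103965055 was past the filter level in no healthy library, where 97.3% of all such genes were called higher. The 10 genes summed to 5.36 to 6.26 CPM in watercore and 3.68 to 4.44 CPM in healthy libraries. Of 16 genes for monolignol sugars and lignans 5 were tested, 1 called higher and 1 lower, with sums of 44.6 to 49.5 CPM in watercore and 37.3 to 46.6 CPM in healthy libraries. Polyphenol oxidase, the browning enzyme, had 2 of 5 genes tested and none called by edgeR with Benjamini-Hochberg adjustment: LOC103944298 was at a log2 fold change of −0.60 (adjusted p = 1.23e-04) and LOC103927236 at 0.42 (adjusted p = 0.246).

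The cells in which lignin is laid down left few transcripts. The 15 genes of xylem and stone cell walls, among them the cellulose synthases 4, 7 and 8, summed to 4.61 to 5.84 CPM in watercore and 0.737 to 1.48 CPM in healthy libraries, with 3 tested, 2 called higher and 2 at 0 throughout. The 2 were past the filter level in no healthy library, where 97.3% of all such genes were called higher. They were LOC103930416 (COBRA-like 4), with 21, 20 and 28 counts in watercore libraries and 0, 5 and 1 in healthy libraries (log2 fold change 3.44, adjusted p = 0.00181), and LOC103934731 (a fasciclin-like arabinogalactan protein 11), with 25, 14 and 34 counts in watercore libraries and 0 in healthy libraries. The third tested gene, LOC103943043 (cellulose synthase 8), was not called, at 0.37 on the log2 scale (adjusted p = 0.546). Of 18 regulators of secondary walls, 3 were tested and all 3, each a Myb4-like gene, were called higher, and all 3 were past the filter level in no healthy library. The list had a sum of 10.4 to 15.1 CPM in watercore and 0.612 to 0.987 CPM in healthy libraries. MYB4 of Arabidopsis is a repressor of C4H, but whether these Myb4-like genes share that role was not tested. The regulators that switch on secondary walls, MYB46, NAC30 and NAC43, went untested, and no gene so named had more than 8 counts in a library.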

How the data were processed

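RNA of 3 watercore and 3 healthy pulp libraries was sequenced. According to the methods, the authors aligned cleaned reads to a Pyrus betulifolia genome, with HISAT2. The table uses other gene identifiers on 1672 scaffolds, and for its build, counting tool, strand setting and counting unit nothing is stated in the sources used here. The authors deposited 1 unnormalized count per gene and library. The deposited FPKM values divide these counts by gene length and library scale and were used only to compare levels between genes. Gene length, another deposited column, served for length offsets. The authors' own comparison (fold changes and p-values) was not used. All columns of per-library values were used.

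Totals per library were 14382020 to 15290688 counts, and the common biological coefficient of variation was 0.143. Chi-square per degree of freedom between replicates was 4.18 to 10.5, where 1 is counting noise alone, so none is a copy of another. Counts were scaled by TMM, filtered with filterByExpr and tested in edgeR 4.0.16 under R 4.3.3, with Benjamini-Hochberg adjustment over all 21200 tested genes. Genes were called at an adjusted p under 0.05 and a log2 fold change of at least 1 in size. DESeq2 1.42.0 and limma 3.58.1 were used in alternatives. The edgeR fit, DESeq2, length offsets, glmTreat and limma on log2(FPKM + 1) were tried on simulated data. The other alternatives were not. For genes at 0 in healthy pulp the whole group was given 3 counts, and ratios against 1 to 3 counts have exact 95% intervals.

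The pathway's genes, the marker lists and the lists of neighbouring steps were chosen by product name, with earlier results of these data known. In each class every called gene was named up to 5, otherwise the 3 largest and 3 smallest changes, and always the most abundant tested gene by FPKM. Other named genes were chosen after their values were seen. Of the 209 genes, 14, of which 3 were tested, are in the totals and otherwise not reported here. The alternatives tried were DESeq2, RLE, total-count and upper-quartile scaling, other filters, length offsets, glmTreat, limma on log2(FPKM + 1) or log2(FPKM + 0.1), no minimum fold, a replicate block and each library left out. Tables were handled in Python 3.11.15 with pandas 2.3.3, numpy 2.4.6 and scipy 1.17.1, and plots were drawn with matplotlib 3.10.9. Sequences were not used here.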

Additional observations from a re-analysis of the deposited data

How the results depend on the processing

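With 38 genes called higher and 3 lower under the edgeR fit, DESeq2 gave 48 and 2, RLE and total-count scaling 38 and 3 each, upper-quartile scaling 37 and 3, gene length offsets 38 and 4, glmTreat 33 and 1, and no filter on low counts 55 and 3. At least 10 counts in every library left 34 genes tested, with 11 called higher and 2 lower. On log2(FPKM + 1), limma called 24 higher and 1 lower, and without a minimum mean FPKM 25 and 1. On log2(FPKM + 0.1) it called 26 and 2. With no minimum fold change 44 were higher and 6 lower. With 1 library left out, 36 to 41 genes were higher and 2 to 3 lower. No called gene among the 42 that the naming rule takes reversed its direction in a setting that tested it, which were 16 of the 42 with at least 10 counts in every library, 31 in limma with a minimum FPKM and 41 without watercore replicate 1. LOC103955075, not called and near 0, ranged from −0.10 to 0.36 on the log2 scale. The fit with the replicate number as a block again gave 38 higher and 3 lower and changed no call of a named gene. Libraries with the same number did not deviate together (r = 0.0369, 0.00271 and −0.00256), so the numbers were not taken to pair the libraries. The all-gene median moved by at most 0.02 on the log2 scale between scalings. The median log2 fold change of all tested genes was −0.37 in the shortest and 0.38 in the longest of 5 length classes. Of the 145 untested genes, 70 had a value with no filter and 70 in DESeq2. Of these, 17 were called higher with no filter and 10 by DESeq2, and 0 lower in both. The share of all untested genes called in these fits was not computed, so these counts have no background.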
